A study of Mus musculus with 16 samples.

Results

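The 8 genes described here are 6 adrenergic receptors (Adra1a, Adra1b, Adra1d, Adra2a, Adra2c and Adrb1) and the 2 monoamine oxidases (Maoa and Maob). They were chosen by name, without use of their values but with earlier results of these data known. They come from the 18424 genes measured by RNA-seq in the medial prefrontal cortex (mPFC) of 16 adult male C57BL/6N mice. All 8 had values in every mouse and entered every test.

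The mice carried either 2 normal copies of Arid1b (wild type, WT) or 1 normal and 1 truncated copy (heterozygous, HT). Arid1b encodes a subunit of a chromatin remodelling complex, and the mutant allele, changed at exon 5, comes from a single CRISPR-made line. Their dams drank 0.2% saccharin water, without a drug (vehicle, Veh) or with 0.1 mg/ml fluoxetine (Flx), a selective serotonin-reuptake inhibitor, so that pups of the Flx groups took up the drug with the milk from P3 to P21. After weaning all mice drank normal water and shared cages with mice of the same genetic background, and tissue was taken at P120. This gave 4 groups of 4 mice, namely WT-Veh and HT-Veh on plain saccharin water and WT-Flx and HT-Flx on fluoxetine. The drug was given to the dam, and which mice shared a dam is not given in the sources used here, so p-values measure the spread between these mice and may be too small if litter mates share a group.

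Noradrenaline reaches the cortex through axons of brainstem neurons and acts on G protein-coupled receptors. Alpha-1 receptors couple to Gq and phospholipase C, alpha-2 receptors to Gi, which lowers cyclic AMP, and beta-1 receptors to Gs, which raises it. Monoamine oxidases of the outer mitochondrial membrane break down noradrenaline, dopamine and serotonin, and serotonin is the preferred substrate of monoamine oxidase A. In the brain, Maob is known mainly from astrocytes and serotonergic neurons, and Maoa from catecholaminergic neurons and other cells.

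Values are normalized read counts, that is, estimated reads per gene after the authors' correction for library size. The sequencing depth behind them is unknown, so no counting error is given. Arid1b itself was lower in HT mice, by 0.39 on the log2 scale over both treatments (SE 0.082), which missed the threshold across all genes (limma, adjusted p = 0.124). Markers of cortical projection neurons were present in every mouse. However, 5 mice also carried high levels of olfactory bulb markers. On a score, the mean log2(value + 1) of the bulb markers, 3 WT-Flx mice (replicates 1, 2 and 4) and 1 mouse each of WT-Veh (replicate 1) and HT-Veh (replicate 4) lay between 7.16 and 9.29, and the other 11 mice between 4.42 and 5.37. The summed level of these markers (9 of 10 in the table) was narrowest in HT-Flx (1133 to 1324) and reached 4164 in HT-Veh (from 1226), 9894 in WT-Flx (from 1422) and 12060 in WT-Veh (from 1116). For some comparisons, results are given with and without these 5 bulb-rich mice.

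The coding sequences of relatives are shown first, since reads from a shared stretch cannot be assigned to one gene with certainty. Maoa and Maob lie side by side on chromosome X on opposite strands (GRCm38, chrX:16619698-16687818, plus strand, and chrX:16709282-16817366, minus strand), and their coding sequences were identical at 71.2% of aligned bases. Their longest identical run was 35 bases, and the window shown around it spans parts of coding exons 11 and 12 in both genes (chrX:16680857-16682250 and chrX:16716434-16718270, intron included). The sequences come from GENCODE release M21 and read 5′ to 3′ along the transcript, with the shared run in capitals.
Maoa: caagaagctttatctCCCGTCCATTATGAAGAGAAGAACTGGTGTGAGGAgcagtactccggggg
Maob: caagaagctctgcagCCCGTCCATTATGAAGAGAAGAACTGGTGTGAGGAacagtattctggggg

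Among the receptors the closest pair was Adra2a (chr19:54044151-54048982, plus strand) and Adra2c (chr5:35278319-35281763, plus strand), with 72.8% identity and a longest shared run of 26 bases. The window shown around this run lies in the coding exon of each gene (chr19:54046662-54046717 and chr5:35280342-35280397, both plus strand).
Adra2a: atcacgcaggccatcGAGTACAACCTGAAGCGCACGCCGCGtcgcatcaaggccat
Adra2c: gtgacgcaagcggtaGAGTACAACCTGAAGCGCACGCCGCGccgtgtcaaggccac

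Adra1a (chr14:66635251-66771168, plus strand) and Adra1b (chr11:43774606-43901210, minus strand) were 66.6% identical, with a longest run of 15 bases. The windows shown around this run lie in coding exons, at chr14:66637754-66637798 and chr11:43835811-43835855.
Adra1a: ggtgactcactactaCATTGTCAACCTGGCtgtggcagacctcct
Adra1b: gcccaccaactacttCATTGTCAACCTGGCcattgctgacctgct

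Adra1d (chr2:131545850-131562283, minus strand) and Adrb1 (chr19:56722199-56733113, plus strand) complete the set. Of all 31-base words in a gene's transcripts, the share also present in transcripts of another gene was 6.91% in Maoa and 6.31% in Adra1d, and at most 2.03% in the others. In Adra1d all 118 such words were shared with Gm14285, which overlaps it on the other strand, and in Adra2a and Adra2c there were none. Maob had 5 such words, all shared with Maoa. The libraries were stranded, but whether the quantification used the strand is not given in the sources used here.

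Per kilobase of exon, the 8 genes fell into an upper and a lower range. Maob came first, with a mean of 269 normalized reads per kb (SD 19.2, n = 16), followed by Adra1d at 246 (SD 28.8), Maoa at 235 (SD 16.6), Adrb1 at 234 (SD 25.2) and Adra1b at 202 (SD 32.5). Each of these overlapped its neighbour in range over mice. Below a gap that no mouse bridged came Adra2c at 99.6 (SD 17.1), Adra2a at 66.1 (SD 11.6) and Adra1a at 40.9 (SD 10.3), again with overlapping neighbours. Maob was the highest of the 8 genes in 10 of 16 mice and Adra1a the lowest in 15 of 16. This order depends on the length used, since with the mean transcript length in place of all annotated exons Adra1a moved from the last to the sixth place (101 per kb) and Adrb1 to the second (460 per kb).

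**Figure D1:**
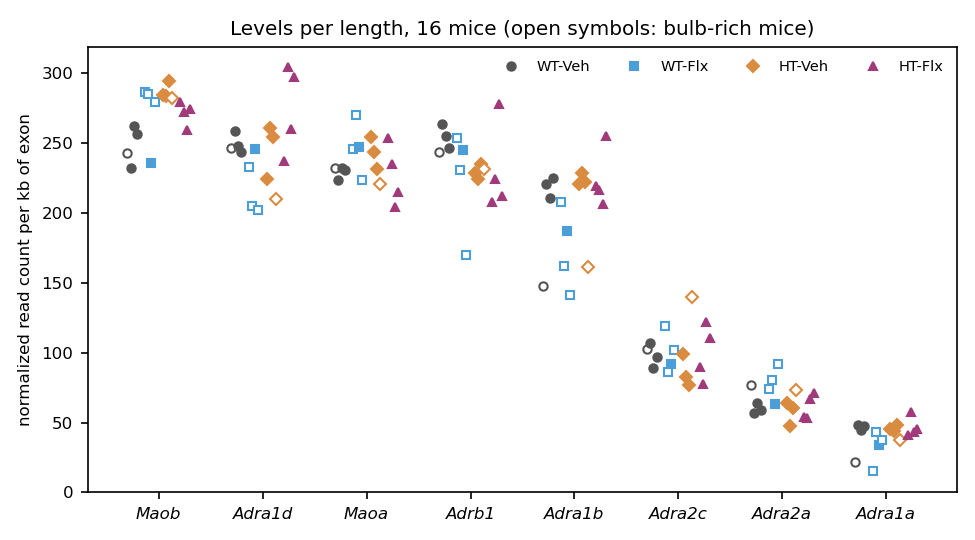
Normalized read count per kb of annotated exon (y axis, linear) for the 8 genes (x axis, ordered by mean), one point per mouse and symbols by group. The 3 genes on the right, Adra2c, Adra2a and Adra1a, lie below 140 in every mouse, and the other 5 lie above 141.

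Of the summed per-kb level of the 6 receptors, the alpha-1 receptors made up 54.8% (SD 4.26, n = 16), the alpha-2 receptors 18.8% (SD 3.42) and Adrb1 26.4% (SD 2.24). These shares used all annotated exons as the length and depend on that choice. With the mean transcript length, Adrb1 came to 460 per kb, above Adra1d at 246 and Adra1b at 244. The alpha-1 share was highest in HT-Flx, at 58.3% ± 4.28, followed by HT-Veh at 55.5% ± 5.39, WT-Veh at 54.0% ± 3.01 and WT-Flx at 51.5% ± 1.52 (SD, n = 4 each). The ranges of all 4 groups overlapped. The bulb-rich mice held the lowest shares of all. These were 47.9% in HT-Veh replicate 4, 49.6% in WT-Veh replicate 1, and 50.5%, 50.7% and 51.1% in WT-Flx replicates 1, 2 and 4. Every other mouse lay at 52.2% or above. The part of bulb tissue in the order of the groups was not tested.

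The genes also differed in how steady they were between mice of a group. Maob and Maoa had within-group standard deviations of 0.082 and 0.100 on the log2 scale, against a median of 0.175 for genes with a mean of at least 100. Adra1d (0.133) and Adrb1 (0.166) also lay below this median. Adra2a (0.225), Adra1b (0.231) and Adra2c (0.268) lay above it, and Adra1a (0.446) varied more than 96.7% of these genes.

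None of the 8 genes passed the threshold in any of the 7 group comparisons (limma on log2(value + 1), Benjamini-Hochberg adjusted over all genes tested, threshold 0.05). Few genes did at all. In HT-Veh versus WT-Veh 0.0178% of genes were called, in HT-Flx versus WT-Flx 0.0417%, and over both treatments 0.0569% between genotypes. No gene was called for fluoxetine against vehicle, whether in HT mice (0%), in WT mice (0%) or over both genotypes (0%), nor for the interaction (0%), which subtracts the WT response to the drug from the HT response. At an unadjusted p below 0.05 in limma, these 4 comparisons held 516, 707, 568 (3.23%) and 754 genes, and none of the 8 passed that mark for fluoxetine over both genotypes.

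**Figure D2:**
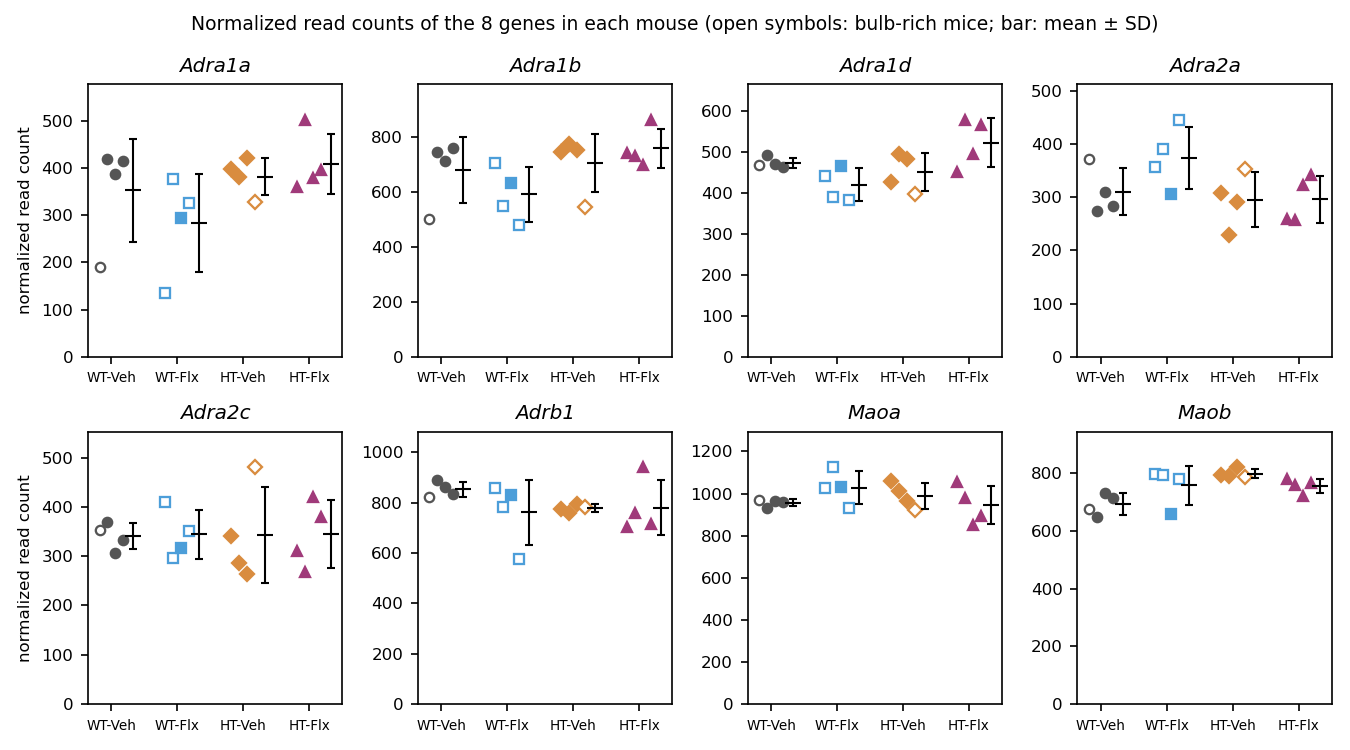
Normalized read count (y axes, linear from 0) of each gene in each of the 16 mice, by group, with the group mean and SD as black bars (n = 4). Open symbols are the 5 bulb-rich mice. Maob in HT-Veh (786 to 821) lies above WT-Veh (648 to 730), and Adra1a in WT-Veh replicate 1 and WT-Flx replicate 1 lies far below the rest.

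The comparison of HT-Veh with WT-Veh asks what loss of one Arid1b copy does without the drug. The gene with the largest change relative to its error was Maob. It had values of 678, 648, 730 and 716 in WT-Veh and of 794, 791, 821 and 786 in HT-Veh. All 4 HT mice lay above all 4 WT mice, and the log2 change was 0.20 (SE 0.071, 95% interval 0.047 to 0.36), or 15.2%, with an unadjusted p of 0.0161 and an adjusted p of 0.922 in limma. Adrb1, the Gs-coupled receptor, read 823, 891, 862 and 834 in WT-Veh and 773, 760, 795 and 783 in HT-Veh. Here all HT mice lay below all WT mice, with a log2 change of -0.13 (SE 0.066, interval -0.28 to 0.015; limma, adjusted p = 0.922). Thus 2 of the 8 genes did not overlap between these groups, against 3.84% of all genes tested, and 1 of 8 had an unadjusted p below 0.05, against 4.88%. Without the bulb-rich mice the changes of Maob and Adrb1 were 0.20 (SE 0.079) and -0.15 (SE 0.10).

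The other 6 genes overlapped between these groups. Maoa read 967, 931, 967 and 961 in WT-Veh, against 1059, 1014, 963 and 920 in HT-Veh. Its log2 change was 0.047 (interval -0.11 to 0.20). The log2 ratio of Maob to Maoa within a mouse, which does not depend on the scaling of the library, was -0.31 ± 0.094 in HT-Veh against -0.47 ± 0.060 in WT-Veh (SD, n = 4 each). The ranges of this ratio overlapped, since it was -0.42 in HT-Veh replicate 1 and -0.40 in WT-Veh replicate 3. The remaining changes ran from -0.076 for Adra2a to 0.17 for Adra1a. Adra1a is the gene this comparison limits least, with an interval of -0.34 to 0.69.

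**Figure D3:**
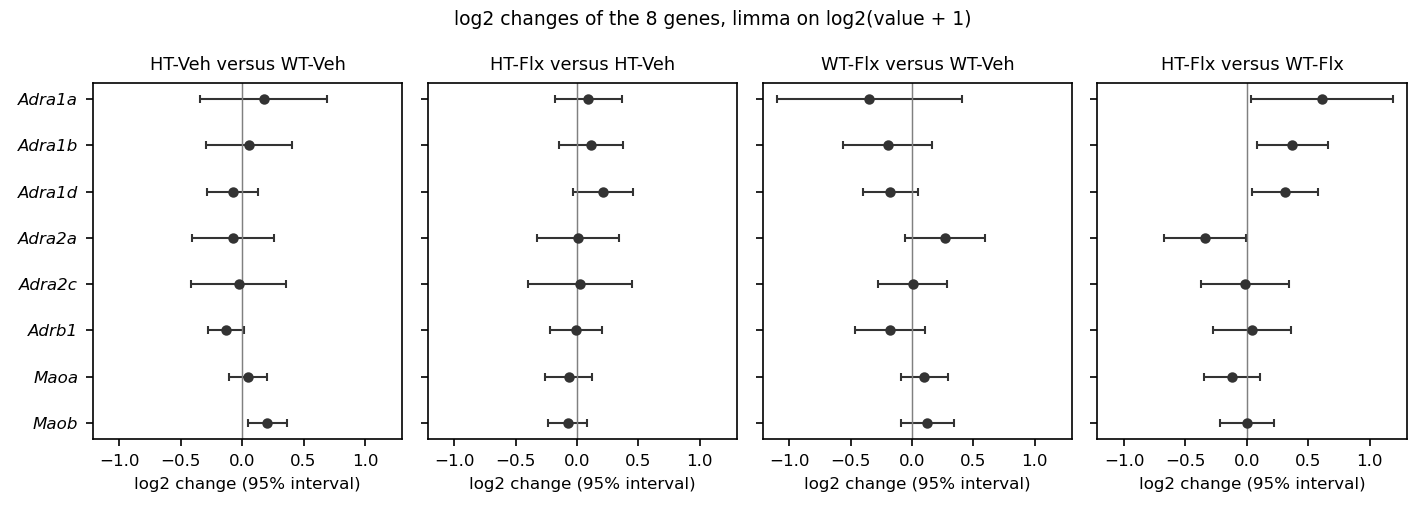
log2 change (x axes) of the 8 genes in 4 comparisons, with 95% intervals from limma on log2(value + 1), n = 4 mice per group. The interval of Maob lies above 0 in HT-Veh versus WT-Veh, and those of 4 receptors exclude 0 in HT-Flx versus WT-Flx, but no gene passed the adjusted threshold.

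In HT-Flx versus HT-Veh, which asks what early fluoxetine does in the mutants, changes of the 8 genes ran from -0.077 to 0.21 on the log2 scale. Maob read 780, 759, 722 and 765 in HT-Flx. All 4 values lay below those of HT-Veh, a change of -0.077 (SE 0.071, interval -0.23 to 0.079; limma, adjusted p = 1). It was the only one of the 8 without overlap, against 1.99% of all genes, and 3 of the 4 HT-Flx mice lay above every WT-Veh mouse (highest 730). Adra1d, an alpha-1 receptor, had the largest change. It read 427, 496, 483 and 398 in HT-Veh and 451, 578, 494 and 565 in HT-Flx, with overlap between the groups and a change of 0.21 (SE 0.11, interval -0.036 to 0.45). None of the 8 genes reached an unadjusted p below 0.05, against 3.07% of all genes.

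In WT-Flx versus WT-Veh, the same question in wild type, no gene of the 8 reached an unadjusted p below 0.05 either (4.2% of all genes did), and all 8 overlapped (2.89% of all genes did not). The changes ran from -0.35 for Adra1a (interval -1.10 to 0.41) to 0.27 for Adra2a (interval -0.057 to 0.60). That of Adra1a rested on single mice, since it was -0.028 without WT-Flx replicate 1 and -0.62 without WT-Veh replicate 1. Adra2a read 358, 390 and 446 in the bulb-rich WT-Flx replicates 1, 2 and 4, and 306 in WT-Flx replicate 3. In WT-Veh it read 373 in the bulb-rich replicate 1 and 275, 310 and 283 in the others. The part of bulb tissue in the change of Adra2a was not tested. Adra1d read 468, 491, 470 and 463 in WT-Veh, against 442, 389, 466 and 383 in WT-Flx (log2 change -0.18, SE 0.10). The difference between the responses of Adra1d in HT and WT, the interaction, was 0.39 (SE 0.15, interval 0.072 to 0.70; unadjusted p = 0.0189, adjusted p = 0.998 in limma). It was 1 of 8 genes with an unadjusted p below 0.05, against 4.29% of all genes. Without the bulb-rich mice it was 0.18 (SE 0.19), and WT-Flx then held a single mouse. Over both genotypes, fluoxetine changes of the 8 genes lay between -0.13 and 0.14.

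In HT-Flx versus WT-Flx, 4 of the 8 genes had an unadjusted p below 0.05, against 10.4% of all genes, and none passed after adjustment. These were the 3 alpha-1 receptors with higher means in HT-Flx (5.58% of all genes in that direction) and the alpha-2 receptor Adra2a with a lower one (4.87%). None of the 8 was free of overlap between the groups, against 5.83% of all genes. Adra1b had values of 704, 547, 634 and 478 in WT-Flx and of 743, 732, 697 and 861 in HT-Flx, with overlap through WT-Flx replicate 1. Its log2 change was 0.37 (SE 0.13, interval 0.080 to 0.66; limma, adjusted p = 0.387). Adra2a read 358, 390, 306 and 446 in WT-Flx and 260, 258, 324 and 343 in HT-Flx, a change of -0.34 (SE 0.15; limma, adjusted p = 0.470). The Adra1a values in WT-Flx were 136, 377, 294 and 327, with one mouse far below the others, and those in HT-Flx were 360, 502, 379 and 396. Its change was 0.61 (SE 0.26; limma, adjusted p = 0.455), and that of Adra1d was 0.31 (SE 0.12; limma, adjusted p = 0.430). Without WT-Flx replicate 1, the lowest mouse, the change of Adra1a was 0.29 (SE 0.15).

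These 2 groups also differed in olfactory bulb markers, since 3 of 4 WT-Flx mice and no HT-Flx mouse were bulb-rich. Markers of striatal neurons had lower means in HT-Flx too (8 of 8, median log2 change -0.47, 1 with an unadjusted p below 0.05), as did those of oligodendrocytes (9 of 10, median -0.20, 2 with such a p), with no marker called and a median of 0.0081 over all genes. The part of either in the changes of the receptors was not tested. With the bulb score as a covariate in a fit of all 4 groups, the changes were 0.053 (SE 0.12) for Adra1b, -0.067 (SE 0.14) for Adra2a, 0.30 (SE 0.30) for Adra1a and 0.21 (SE 0.12) for Adra1d. Without the bulb-rich mice they were 0.25, -0.061, 0.46 and 0.16, with WT-Flx replicate 3 alone in its group. Maoa, Maob, Adra2c and Adrb1 had intervals that included 0 in this comparison, and the value of Maob was 0.0021 (SE 0.10). This value depends on the bulb-rich mice. Maob read 779 to 799 in the bulb-rich WT-Flx mice and 658 in WT-Flx replicate 3, against 722 to 780 in HT-Flx. In bulk tissue, fewer cells of a type and less RNA per cell cannot be told apart.

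**Figure D4:**
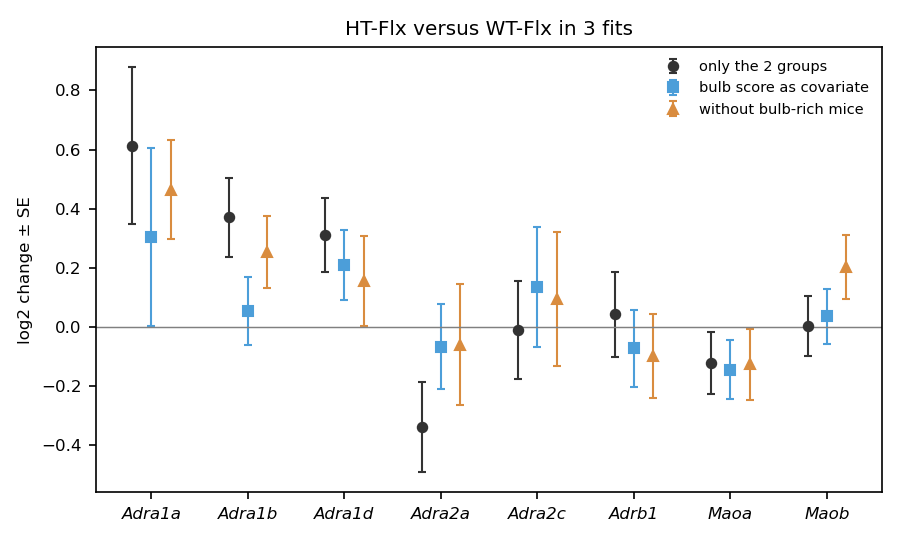
log2 change ± SE (y axis) between HT-Flx and WT-Flx for the 8 genes in 3 fits, with only these groups, with the bulb score as a covariate, and without the 5 bulb-rich mice (the latter 2 with all 4 groups in the fit). Adra1b moves from 0.37 to 0.053 and Adra2a from -0.34 to -0.067 in the fit with the score, which also takes in the vehicle groups. Without the bulb-rich mice, Adra1b lies between its values in the other fits and Adra2a near its value with the score. WT-Flx replicate 3 is then alone in its group.

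Over both treatments, the genotype changes were 0.39 for Adra1a (interval -0.015 to 0.80, and 0.23 without WT-Flx replicate 1), 0.21 for Adra1b, -0.21 for Adra2a and 0.10 for Maob, with intervals of all 8 genes including 0. None of the 8 reached an unadjusted p below 0.05, against 11.7% of all genes.

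Adra1b and Adra2a followed the bulb score between mice of the same group. The fit of all 16 mice, with the 4 group means and the score, called 2 of the 8 genes, 1 that fell (6.89% of all genes did) and 1 that rose (4.73%), against 11.6% in both directions. That share itself depended on single mice, with 152 of all genes called without WT-Veh replicate 1 and 3517 without WT-Flx replicate 1, in place of 2041. Adra1b fell by 0.13 on the log2 scale for each unit of the score (SE 0.026; limma, adjusted p = 0.00453), and Adra2a rose by 0.11 (SE 0.032; limma, adjusted p = 0.0337). Adra2a read 353 to 446 in the 5 bulb-rich mice and 229 to 343 in the other 11, and Adra1b read 478 to 704 against 634 to 861. Adra2a was the only 1 of the 8 genes without overlap between these mice, against 2.68% of all genes. The cortical projection neuron marker Slc17a7 read 32162 to 41966 in the bulb-rich mice, with a median of 33589, and 37178 to 43463 in the others, with a median of 40979. Slopes of the 10 markers of these neurons ran from -0.18 to 0.095. Of these markers, 3 were called lower, against 6.89% of all genes, and 2 had slopes above 0. The part of tissue composition in the slopes of Adra1b and Adra2a was not tested.

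Both slopes rest on few mice. Without WT-Veh replicate 1 neither gene was called, with slopes of -0.13 for Adra1b (limma, adjusted p = 0.174) and 0.14 for Adra2a (limma, adjusted p = 0.241), and no gene of the 8 passed. Adra2a was also not called without any 1 of WT-Veh replicates 2 and 4, WT-Flx replicates 3 and 4, or HT-Veh replicates 2 and 4, where its slope stayed between 0.098 and 0.11. Without WT-Flx replicate 1, Adra1a was called as well (slope -0.13, SE 0.043; limma, adjusted p = 0.0368). Over all alternatives the adjusted p ranged from 0.000847 to 0.945 for Adra1b and from 0.0225 to 0.963 for Adra2a. Within the 11 other mice the slope of Adra1b was 0.13 (SE 0.15) and that of Adra2a 0.17 (SE 0.26), over a narrow range of the score. Adra1a, Adra1d, Adra2c, Adrb1, Maoa and Maob did not pass on the score, and the slopes of Maoa (-0.0092, interval -0.056 to 0.038) and Maob (0.014, interval -0.031 to 0.058) were the nearest to 0. On scores of astrocyte and of oligodendrocyte markers no gene of the 8 was called, against 0% and 0.296% of all genes, and 13.4% of genes (2361) had an unadjusted p below 0.05 on the astrocyte score in limma, 1 of the 8 among them. That gene was Adra1a, with a slope of 1.92 (SE 0.84; unadjusted p = 0.0358, adjusted p = 0.342 in limma), and of 0.87 (SE 0.79) without WT-Flx replicate 1.

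**Figure D5:**
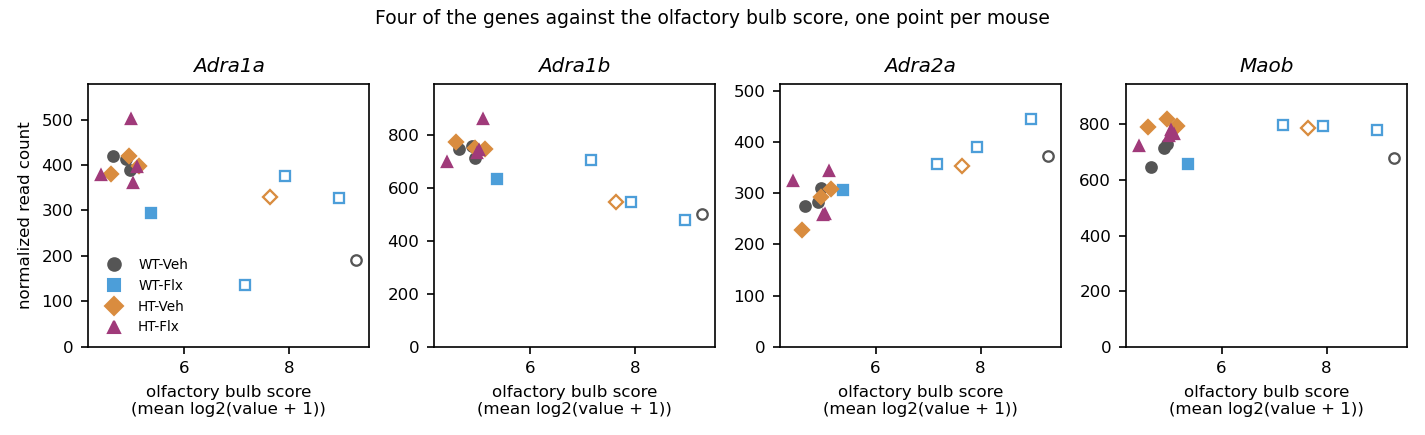
Normalized read count (y axes, linear from 0) of Adra1a, Adra1b, Adra2a and Maob against the olfactory bulb score (x axes, mean log2(value + 1) of bulb markers), one point per mouse. The 5 open symbols on the right are the bulb-rich mice, in which Adra2a reads 353 to 446 and Adra1b 478 to 704, while Maob reads 678 to 799, inside the 648 to 821 of the other mice.

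The 8 genes did not move as one between mice. Over the 16 mice, Pearson's r of log2 values was -0.73 between Adra1b and Adra2a, 0.69 between Adra1b and Adra1d, and 0.27 between the neighbours Maoa and Maob. These r values are descriptions over mice that share groups, scaling and the bulb score. The gene most like Adra1b among 12543 genes with a mean of at least 100 was Slc17a7, the vesicular glutamate transporter of cortical projection neurons (r = 0.905), followed by Uvrag and Extl1. The Spearman rho of Adra1b with Slc17a7 was lower, at 0.682. Both genes had lower medians in the bulb-rich mice, 545 against 746 for Adra1b and 33589 against 40979 for Slc17a7. The gene most like Adra1a was Mga (r = 0.972), then Nup98 and Fam120c, with a Spearman rho of 0.765 for Mga, so the high r leans on the mice with low Adra1a. For Adra2a it was Abcd3 (r = 0.857), then Snhg8 and Slc9a3r2. The nearest gene was Etnk2 for Adra1d (r = 0.836, then Wdr45b and St6galnac4), Crocc for Adra2c (r = 0.865, then Tepsin and Dusp28) and Lysmd4 for Adrb1 (r = 0.751, then Rassf3). Rassf3 had an r of 0.744 with Adrb1 but a Spearman rho of only 0.344. For the oxidases it was Spata7 with Maoa (r = 0.855, then Orc3 and Coa7) and Zfp39 with Maob (r = 0.822, then Erich3 and Thra).

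Of the other genes of the noradrenaline pathway, those for synthesis, release and uptake (8 of 10 listed genes in the table), for breakdown (8), the remaining adrenergic receptors (3, of which 2 were tested), dopamine receptors (4 of 5) and receptor signalling (36), none was called in any group comparison. Dbh, which makes noradrenaline from dopamine, lay between 2.78 and 15.1 in all mice. Th, which makes the dopamine precursor, lay between 20.9 and 47.2 in 11 mice and between 209 and 1329 in the 5 bulb-rich mice, and the vesicular transporter Slc18a2 between 0.91 and 11.0 against 16.1 to 71.1.

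On the bulb score, 3 of 8 tested genes of synthesis, release and uptake rose, namely Th (slope 1.23 log2 per unit), Slc18a2 (0.83) and Ddc (0.20), which converts the dopamine precursor, against 4.73% of all genes that rose. Of the 36 receptor signalling genes, 3 rose and 6 fell with the score, against 4.73% and 6.89% of all genes. Those that rose were Gnai1 (0.074), Gnai3 (0.093), both alpha subunits of Gi, and the adenylyl cyclase Adcy8 (0.15). Those that fell included the adenylyl cyclases Adcy1 (-0.24), Adcy9 (-0.24) and Adcy2 (-0.067), the receptor kinase Grk3 (-0.099) and the protein kinase C gene Prkcb (-0.088). No gene for breakdown and no further receptor gene was called on it. On the oligodendrocyte score the dopamine receptor Drd2 was called, with a slope of 4.51 (SE 0.79; limma, adjusted p = 0.0156), against 0.296% of all genes. Drd2 is also a gene of striatal neurons, and all 8 striatal neuron markers had slopes above 0 on this score (median 1.97, 7 with an unadjusted p below 0.05, 1 called). Their part in the slope of Drd2 was not tested.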

How the data were processed

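The deposited signal is a normalized read count per gene. The authors quantified stranded poly-A libraries with Salmon 1.1.0 on GRCm38, summarised them with tximport and divided estimated reads by factors from DESeq2 1.30.1, so that an error in these factors moves all genes of a mouse. Whole reads could not be recovered. Groups and replicate numbers came from the sample titles, all 16 columns were used, and 18411 of 18424 genes matched a symbol.

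Each comparison was tested with limma 3.58.1 in R 4.3.3 (trend, two-sided) on log2(value + 1), for genes that reached 10 in 4 or more mice of the fit. Only the groups compared entered. The interaction, the effects over both levels and the slopes on marker scores used all 16 mice. Fold changes on this scale understate those of low genes. The code was tested on simulated data. Levels per kb used GENCODE M21 exons, all merged. The bulb-rich mice lie above the midpoint of the score, 6.85. The 8 genes, the pathway and marker lists and the tests were chosen with earlier results of these data known. Named genes are the 8, every pathway gene called, Th, Dbh and Slc18a2, and for each of the 8 the 3 genes with the highest r. Some genes that this rule names are not reported here. Slc17a7 was compared between bulb-rich and other mice after values were seen. Alternatives changed the pseudocount, filter, scaling, samples and covariates.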

Additional observations from a re-analysis of the deposited data

Results flagged for a closer look

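Of 48 sets of 4 mice tested for a value far from the other 3 of its group (11 genes and the ratio of Maob to Maoa, in 4 groups), 7 passed Dixon's limit of 0.829. Chance gives about 1 in 20. Adra1a read 191 in WT-Veh replicate 1 and 388 to 420 in the other 3 mice. Adra1b read 545 in HT-Veh replicate 4 and 747 to 772 in the others. Both mice are bulb-rich. Maoa read 931 in WT-Veh replicate 2, close below the 961 to 967 of the others. Maob read 658 in WT-Flx replicate 3, the only mouse of that group that is not bulb-rich, and 779 to 799 in the others. Th read 1329 in WT-Veh replicate 1 against 20.9 to 42.4, and 328 in HT-Veh replicate 4 against 21.8 to 43.5. Slc18a2 read 71.1 in WT-Veh replicate 1 against 2.31 to 11.0.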

How the results depend on the processing

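Across the 7 group comparisons, none of the 8 genes was called under any alternative tried (pseudocounts of 0.1 and 8, no filter, a mean of at least 100, quantile normalization, the replicate block, all 4 groups in the fit, the bulb covariate, without the bulb-rich mice, and each mouse left out). The number of the 8 called on the bulb score was 1 with quantile normalization, 1 with the replicate block and 0 without the bulb-rich mice, an alternative chosen after seeing the data, and 0 to 3 with one mouse left out. Same-numbered mice of different groups had correlations of -0.23 to 0.31 (24 pairs, median 0.059, 9 over 0.1). Other-numbered mice had correlations of -0.46 to 0.36 (72 pairs, median -0.013, 8 over 0.1). Same-numbered mice were thus more often alike, and whether the number marks a shared factor was not tested. The main fits did not take the number as a pairing. With the replicate block, the genes called for genotype over both treatments rose from 10 to 17. The block changed no other call of the 8 genes than that of Adra2a on the bulb score (limma, adjusted p = 0.101). Over all alternatives, mice left out included, the number of all genes called ranged from 0 to 3 in HT-Veh versus WT-Veh (3 as reported), from 0 to 23 in HT-Flx versus WT-Flx (7; 23 without WT-Flx replicate 3), from 1 to 17 for genotype over both treatments (10; 1 without WT-Flx replicate 2), from 0 to 4 in WT-Flx versus WT-Veh (0; 4 without WT-Veh replicate 1), from 0 to 2 for the interaction and for fluoxetine over both genotypes (0; 2 without the bulb-rich mice), from 0 to 1 on the astrocyte score (0) and from 29 to 60 on the oligodendrocyte score (52; 29 without WT-Veh replicate 3). On the bulb score it was 2041, against 0 without the bulb-rich mice, 795 with the replicate block and 152 to 3517 with one mouse left out. The causes were not tested.

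The following values turned sign (log2), among them the called slope of Adra1b on the bulb score (-0.13) and the interaction of Adra2a (-0.26). Without the bulb-rich mice, Adra1a was -0.029 in HT-Veh versus WT-Veh, Adra1b -0.0020 in HT-Flx versus HT-Veh, Adra2c -0.081 and Maob -0.083 in WT-Flx versus WT-Veh, Adra2c 0.094 and Adrb1 -0.099 in HT-Flx versus WT-Flx, Adra2a 0.015 in the interaction and Maob -0.084 for fluoxetine over both genotypes. The slopes on the bulb score were then 0.11 for Adra1a, 0.13 for Adra1b, -0.30 for Adra2c and 0.21 for Maoa. With the bulb covariate, Adra2c was -0.077 in WT-Flx versus WT-Veh, 0.14 in HT-Flx versus WT-Flx, 0.063 for genotype and -0.00575 for fluoxetine, Adrb1 was -0.072 in HT-Flx versus WT-Flx and Adra1b 0.0046 for fluoxetine. Maob was -0.000457 in HT-Flx versus WT-Flx with quantile normalization. With the replicate block the slopes on the astrocyte score were 0.14 for Maoa and 0.13 for Maob.

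With one mouse left out, ranges that crossed 0 were as follows. In HT-Veh versus WT-Veh they were Adra1a -0.098 to 0.28, Adra1b -0.084 to 0.18, Adra2a -0.17 to 0.041 and Adra2c -0.20 to 0.081. In HT-Flx versus HT-Veh they were Adra1a -0.0095 to 0.15, Adra1b -0.0020 to 0.17, Adra2a -0.11 to 0.098, Adra2c -0.086 to 0.20 and Adrb1 -0.099 to 0.040. In WT-Flx versus WT-Veh it was Adra2c -0.083 to 0.073. In HT-Flx versus WT-Flx they were Adra2c -0.11 to 0.10, Adrb1 -0.087 to 0.11 and Maob -0.064 to 0.029. For the interaction it was Adra2c -0.092 to 0.19. For genotype over both treatments it was Adra2c -0.11 to 0.037. For fluoxetine over both genotypes they were Adra1a -0.26 to 0.033, Adra1b -0.11 to 0.0076, Adra1d -0.012 to 0.051, Adra2c -0.040 to 0.10 and Maoa -0.011 to 0.041. For the slope on olfactory bulb score they were Adra1a -0.17 to 0.011, Maoa -0.025 to 0.0016 and Maob -0.0067 to 0.039. For the slope on astrocyte score they were Adra1b -0.57 to 0.16, Adra1d -0.48 to 0.020, Adrb1 -0.58 to 0.19, Maoa -0.18 to 0.15 and Maob -0.14 to 0.088. For the slope on oligodendrocyte score they were Adra1b -0.12 to 0.29, Adra1d -0.17 to 0.098 and Adrb1 -0.20 to 0.19.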
